A study of Mus musculus with 10 samples.

Results

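The genes described are the heat shock proteins, the DnaJ co-chaperones and 3 of their regulators in mouse regulatory T (Treg) cells. They were taken by symbol from the deposited count table: every Hspa, Hspb, Hsp90 and Dnaja, Dnajb or Dnajc gene with a number, Hspd1, Hspe1, Hsph1, Hsf1, Hsf2 and Bag3, without pseudogenes. That gave 75 of the 27179 genes in the table: 11 of the HSP70 family, 3 of the HSP110 family, 3 HSP90 genes, 2 chaperonin genes, 8 small heat shock proteins, 4 DNAJA, 13 DNAJB and 28 DNAJC genes, and the 3 regulators Hsf1, Hsf2 and Bag3. The rule itself used no measured value, but it was set with earlier results of these data known. The filter on low counts kept 63 of the 75 for testing.

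RNA was sequenced from Treg cells of C57BL/6 mice, sorted as CD4+ TCRb+ YFP+ cells from the gut (colon and small intestine combined) or the spleen. All 4 groups carried Foxp3Cre-YFP, which makes Cre recombinase and a yellow fluorescent protein in cells that express Foxp3. The controls (WT) carried nothing else, and the Maf-KO mice also had Maf fl/fl, a design in which Cre deletes Maf, a bZIP transcription factor, in cells that express Foxp3. Gut libraries numbered 2 in each genotype and spleen libraries 3 in each genotype. The labels give no age or sex and do not say whether animals were pooled. Values of a group are listed by replicate number: 1 and 3 for WT gut, 2 and 3 for Maf-KO gut, and 1, 2 and 3 for each spleen group.

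Heat shock proteins bind unfolded proteins and help them to fold, to be moved or to be degraded. HSP70 proteins do this in cycles of ATP use that DnaJ proteins start and that HSP110 proteins and other exchange factors reset, and HSP90 proteins finish the folding of kinases and receptors. In the cytosol many of these genes are switched on by the transcription factor HSF1 when proteins unfold, while the chaperones of the endoplasmic reticulum (ER) are switched on by the unfolded protein response, which cells with a high secretory load also use.

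The libraries held between 8567035 and 13983965 counts. Maf was at a CPM value (counts scaled to the library size) of 108 and 109 in WT gut and at 0.61 and 0.24 CPM in Maf-KO gut, and at 24.04 to 46.0 CPM in WT spleen against 0.20 to 1.10 CPM in Maf-KO spleen, so it followed the labels in every library. Foxp3 lay between 114 and 212 CPM in all 10 libraries, and all 7 Treg markers on the list were detected. Markers of other cells were present: 7 gut epithelial markers summed to 139 to 176 CPM in gut, of which Epcam gave 119 to 167 CPM, and to 32.2 to 68.6 CPM in spleen, where Krt8 was at 0. Pancreatic acinar markers (6 genes) summed to 114 and 20.0 CPM in WT gut and to at most 7.16 CPM in any other library, with 5 of the 6 at 0 in both Maf-KO gut libraries. Stromal and endothelial markers summed to 44.1 to 68.6 CPM in gut and 115 to 191 CPM in spleen (5 genes), and CD8 and NK cell markers to 19.9 to 32.9 CPM and 39.0 to 90.7 CPM (4 genes). Nothing in the labels says that replicates are separate animals, so the p-values measure the spread between these libraries, which may be technical. The sample titles begin with a code that a gut and a spleen library can share: S371 and S433 in WT, S453 and S495 in Maf-KO. The labels do not say what the code marks, but libraries that share it deviated together, so each tissue comparison is also given with this code as a block where that changes the call of a gene described.

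Chaperone messages took up 1.61% and 3.65% of all counts in WT gut and 2.23% and 1.15% in Maf-KO gut. In the spleen they took up 0.722%, 0.670% and 0.938% in WT and 0.764%, 1.09% and 0.640% in Maf-KO, so every gut library lay above every spleen library. Per kilobase of message, on the authors' FPKM scale, Hsp90ab1, the constitutive cytosolic HSP90, was the highest of the 63 members with a value in WT spleen (mean FPKM 611) and in Maf-KO spleen (mean FPKM 655). Hspa5, the HSP70 of the ER, came next in both spleen groups (mean FPKM 415 and 432), and then Hsp90b1, the HSP90 of the ER (mean FPKM 231 and 223). In WT gut the order was led by Hspa1b, a stress-inducible HSP70, at a mean FPKM of 2818, with Hsp90ab1 at 1308, Hspa1a at 1234 and Hspa5 at 1088. In Maf-KO gut Hspa5 (mean FPKM 1248) and Hsp90ab1 (1117) came before Hspa1b (907) and Hspa1a (466). The order of these neighbours in gut lies within the spread, since Hspa1b differed 10.6-fold between the highest and the lowest gut library.

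**Figure D1:**
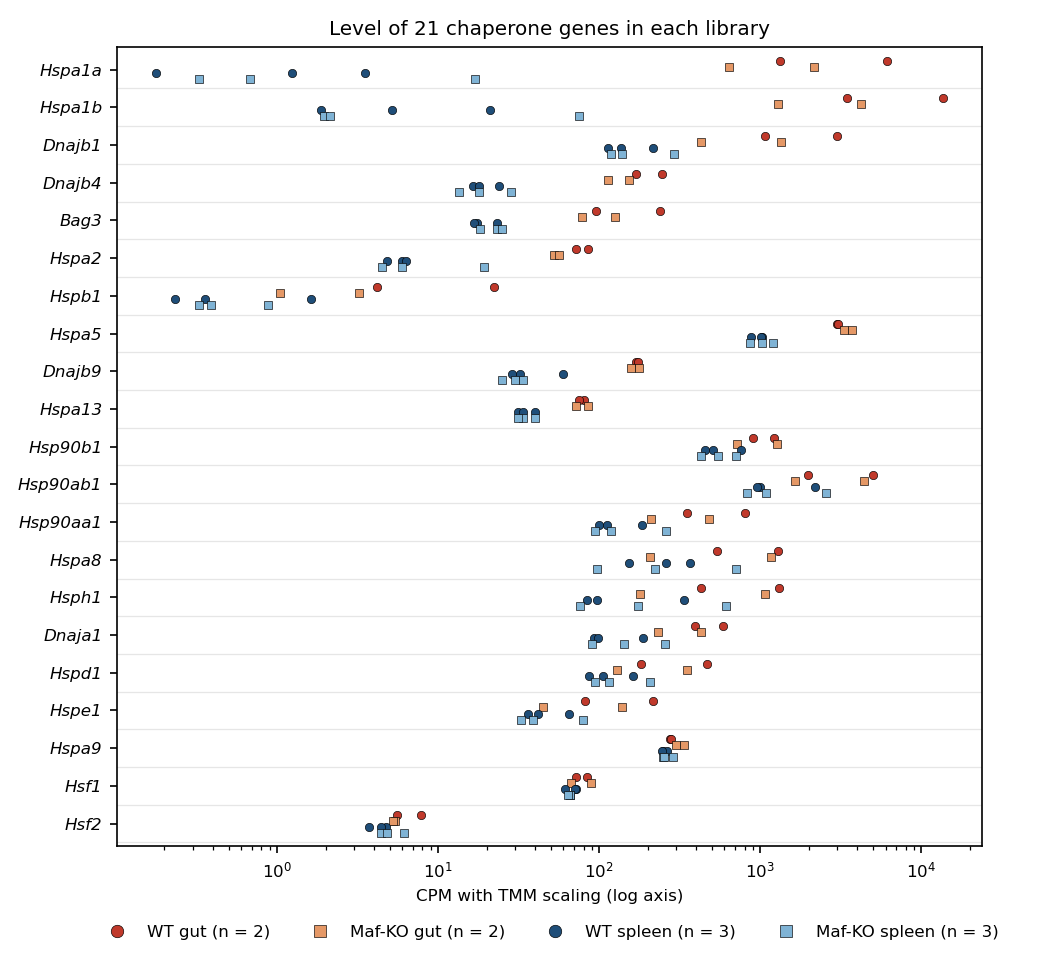
Level of 21 members in each library as CPM with TMM scaling, on a log axis; each point is 1 library, red and orange for WT and Maf-KO gut, dark and light blue for WT and Maf-KO spleen. The 4 gut libraries lie above all 6 spleen libraries for the top 6 genes and for Hspa5, Dnajb9 and Hspa13, while those of Hsf1 and Hsph1 overlap with the spleen.

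Gut Treg cells were compared with spleen Treg cells within each genotype. In WT, 27 of the 63 tested members passed an adjusted p of 0.05 in edgeR's quasi-likelihood test, 22 higher and 5 lower in gut. Over all 13214 genes tested, 28.0% passed in this comparison, 14.7% higher and 13.3% lower, against 42.9% of the tested members, 34.9% higher and 7.94% lower. The members had a median log2 fold change of 0.42 beside -0.03 over all genes. In the Maf-KO mice, 20 members passed, 14 higher and 6 lower. That was 31.7% of the tested members, close to the 28.6% of all genes, with 22.2% higher against 14.4% of all genes and 9.52% lower against 14.1%. The median was 0.36 beside -0.02. With the title code as a block, 36 members passed in WT (37.2% of all genes did) and 34 in Maf-KO (39.7% of all genes), and none of the earlier calls was lost. In this fit each tissue difference rests only on gut and spleen libraries that share a code. A spleen library without a gut partner adds nothing to it. Few degrees of freedom remain to estimate the spread, so the standard errors and p-values with the block are uncertain. The block added 9 members in WT, 6 higher (Hspa8, Hspa4l, Hsph1, Hsp90ab1, Hsp90b1 and Hspd1) and 3 lower (Dnajc9, Dnajc10 and Dnajc14). In Maf-KO it added 14, of which 13 were higher (Hspa8, Hsph1, Hsp90aa1, Hsp90ab1, Hsp90b1, Hspb1, Hspd1, Hspe1, Dnaja1, Dnaja4, Dnajb2, Dnajc1 and Dnajc8) and 1 lower (Dnajc10). A scaling by library totals alone moved the median of all genes to -0.30 (WT) and -0.28 (Maf-KO). Calls then split into 17 higher and 13 lower in WT and 11 higher and 12 lower in Maf-KO, where 39.8% and 37.4% of all genes passed. The 4 gut libraries lay entirely above the 6 spleen libraries for 21 of the 63 tested members, 33.3% (16.7% of all genes), and entirely below them for 6, 9.52% (17.0% of all genes).

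The 13 members called higher in both genotypes were Hspa1a, Hspa1b, Hspa1l, Hspa2, Hspa4, Hspa5, Hspa13, Dnajb1, Dnajb4, Dnajb6, Dnajb9, Dnajc12 and Bag3. Called lower in both were Dnaja3, Dnajc13 and Hspa12a. The calls made in 1 genotype only (9 higher and 2 lower in WT, 1 higher and 3 lower in Maf-KO) do not show a difference between genotypes: edgeR's test of the interaction of genotype and tissue called none of the 63 members (1 had an unadjusted p under 0.05) and 0.0% of all genes. DESeq2 and limma-voom called 0 members in the interaction as well. These fits used no block. With the block the rise in gut was larger in WT for some members, such as Dnajb1 (3.52, SE 0.16, against 2.03, SE 0.15, in Maf-KO). For others it was larger in Maf-KO, such as Hspa5 (1.57, SE 0.11, in WT against 1.90, SE 0.11). Those standard errors are uncertain, and no interaction result with the block is given here.

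**Figure D2:**
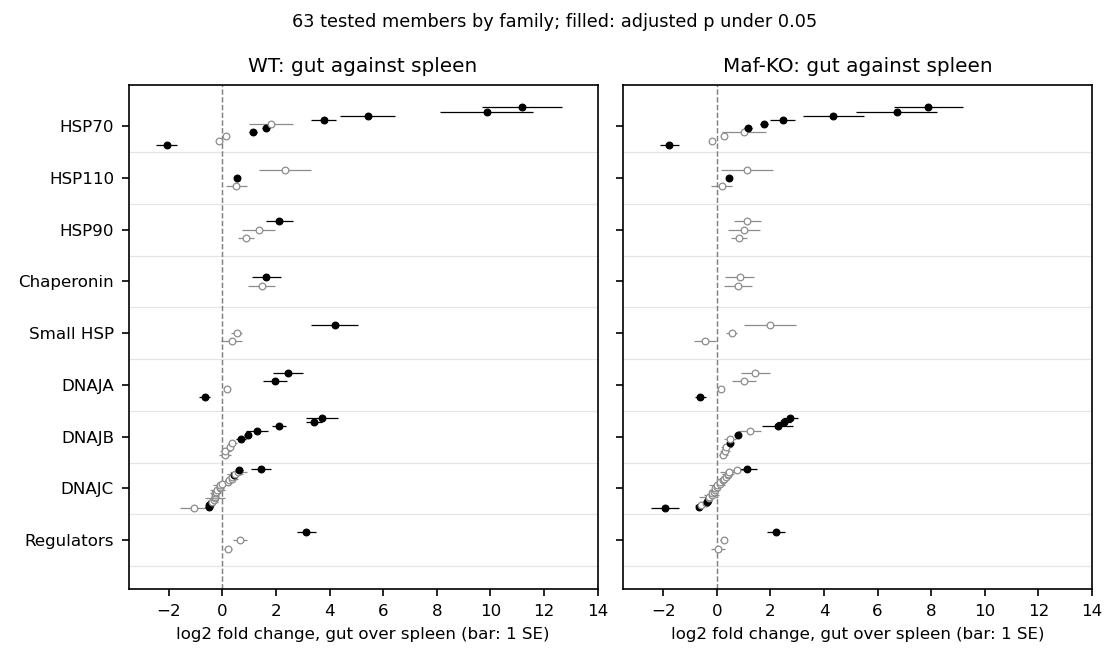
Log2 fold change of gut over spleen with 1 SE for the 63 tested members, by family, in WT (left, 2 against 3 libraries) and Maf-KO (right, 2 against 3 libraries); filled points passed the adjusted p of 0.05. The HSP70 family holds both the largest rises, up to 11.17 for Hspa1a in WT, and a fall, Hspa12a, while most DNAJC points lie near 0.

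Within the HSP70 family, 6 of 10 tested members rose in gut in each genotype and 1 fell. The 6 include Hspa1a, Hspa1b and Hspa1l, between which reads may have been shared. This count and those over the whole set may therefore hold the same signal under several symbols. Over all genes, 14.7% rose and 13.3% fell in WT, and 14.4% and 14.1% in Maf-KO. The largest change of the whole set was that of Hspa1a and Hspa1b, neighbouring genes on chromosome 17 that encode the stress-inducible HSP70. Hspa1a was at 1332 and 6101 CPM in WT gut and at 2160 and 641 CPM in Maf-KO gut, against 0.18, 1.23 and 3.51 CPM in WT spleen and 0.33, 16.9 and 0.68 CPM in Maf-KO spleen. The spleen values rest on 2, 16 and 37 counts in WT and 3, 153 and 7 in Maf-KO. No gut library came near any spleen library: the lowest gut value, 641 CPM, stood against a highest spleen value of 16.9 CPM. The log2 fold change of gut over spleen was 11.17 (SE 1.49, adjusted p = 0.0004973, edgeR) in WT and 7.90 (SE 1.29, adjusted p = 0.001608, edgeR) in Maf-KO.

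Hspa1b ran alongside at higher counts, with 3453 and 13570 CPM in WT gut, 4197 and 1282 CPM in Maf-KO gut, 1.87, 5.16 and 20.9 CPM in WT spleen and 1.95, 74.6 and 2.15 CPM in Maf-KO spleen. Its log2 fold change was 9.85 (SE 1.72, adjusted p = 0.002333, edgeR) in WT and 6.71 (SE 1.52, adjusted p = 0.008687, edgeR) in Maf-KO. The coding sequences of the 2 genes are identical at 1919 of 1929 aligned positions (99.5%) with a longest identical run of 638 bases, so how the counting divided reads between them is uncertain, and they are best read as 1 signal. Together they made up 0.436% and 1.74% of all counts in WT gut and 0.566% and 0.172% in Maf-KO gut, but at most 0.00969% in any spleen library.

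The promoters of these genes show how alike the copies are. The heat shock element to which HSF1 binds is built of units of GAA and TTC in turn. A strict form of 3 units (GAA, TTC and GAA, or TTC, GAA and TTC, with 2 free bases between neighbours, each form the reverse complement of the other, so that both strands are covered) was searched in RefSeq promoters of GRCm38.p6, from 250 bases before to 50 bases after the start. It was found in 179 of 27025 genes (0.662%) and in 4 of the 60 members that have a promoter entry (6.67%): Dnajb6, Hspd1, Hspe1 and Hsph1. A looser pair of units, GAANNTTC or TTCNNGAA, lies inside every strict match and was found in 4587 genes (17.0%) and in 17 of the 60 members (28.3%), Hspa1a and Hspa1b among them. The 250 bases before the start are printed here for Hspa1a (chr17:34972157-34972406, minus strand) and Hspa1b (chr17:34959239-34959488, minus strand), because they carry the largest change, and for Hspe1 (chr1:55087898-55088147, plus strand), because it has the strict element, with the matched letters in capitals. For Hsph1 the element lies just after the start and only 30 bases around it are shown (chr5:149636279-149636308, minus strand).
Hspa1a: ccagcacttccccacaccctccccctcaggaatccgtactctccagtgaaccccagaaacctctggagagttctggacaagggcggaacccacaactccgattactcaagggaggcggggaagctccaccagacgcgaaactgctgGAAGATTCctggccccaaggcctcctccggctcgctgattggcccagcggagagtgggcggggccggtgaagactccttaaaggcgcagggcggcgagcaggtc
Hspa1b: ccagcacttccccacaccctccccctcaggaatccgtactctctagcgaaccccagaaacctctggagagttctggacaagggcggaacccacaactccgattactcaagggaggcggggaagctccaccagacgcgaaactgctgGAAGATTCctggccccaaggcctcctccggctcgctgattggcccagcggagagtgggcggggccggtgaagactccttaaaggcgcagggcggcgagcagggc
Hspe1: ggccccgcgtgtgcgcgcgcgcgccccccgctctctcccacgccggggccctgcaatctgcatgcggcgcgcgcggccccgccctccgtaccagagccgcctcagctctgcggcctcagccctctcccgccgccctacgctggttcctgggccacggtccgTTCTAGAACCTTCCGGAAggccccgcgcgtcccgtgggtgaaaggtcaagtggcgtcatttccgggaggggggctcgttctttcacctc
Hsph1: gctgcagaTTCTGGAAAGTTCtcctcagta

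The Hspa1a and Hspa1b windows are identical at 247 of 250 bases, and in both the pair of units starts 104 bases before the start site. In Hspe1 the capitals cover 2 overlapping strict elements that start 89 and 84 bases before the start. Hspd1 is read from the opposite strand of the same short region, so it shares these elements. Of the 14 tested members with a pair of units, 9 were called higher in WT gut and 5 in Maf-KO gut, and of the 37 tested members with a promoter entry and no pair, 10 and 7 were. Over all tested genes with an entry, 13.2% of those with the pair and 13.8% of those without were called higher in WT gut. In Maf-KO gut 12.7% and 13.8% were. The pair was chosen after values were seen. Of the 4 tested members with the strict element, 2 were called higher in WT gut and 1 in Maf-KO gut. Of the 47 without it, 17 and 11 were. Over all genes, 8.77% and 5.26% of those with the strict element were called higher, and 13.7% of those without in both genotypes. A match is a stretch of letters, not a measured binding site.

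Hspa2, an HSP70 best known from the testis, rose as well. It was at 71.5 and 85.0 CPM in WT gut and 52.8 and 56.3 CPM in Maf-KO gut, against 4.80, 5.93 and 6.36 CPM in WT spleen and 19.3, 5.95 and 4.49 CPM in Maf-KO spleen. Its log2 fold change was 3.78 (SE 0.48, adjusted p = 0.000371, edgeR) in WT and 2.46 (SE 0.46, adjusted p = 0.003253, edgeR) in Maf-KO. Hspa1l, another HSP70 gene of the chromosome 17 cluster, was called higher in both genotypes at a low level, 1.44 to 14.3 CPM in gut, against 7 counts in all in WT spleen and 4 in Maf-KO spleen. An antisense gene covers 71.9% of its exon bases, and reads of the 2 cannot be told apart without the strand. The Hspa1l coding sequence also shares identical runs of up to 233 bases with Hspa1a and 188 bases with Hspa1b. Reads of those genes, far more abundant in gut, may have been counted for Hspa1l, which was not tested.

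Hspa8, the constitutive cytosolic HSP70, missed the threshold in both genotypes and passed with the block. Its values were 541 and 1288 CPM in WT gut, 1172 and 208 CPM in Maf-KO gut, 154, 260 and 365 CPM in WT spleen and 222, 705 and 97.4 CPM in Maf-KO spleen. Gut and spleen overlapped, but in each of the 4 shared codes the gut library was the higher one, by 1.82, 1.82, 0.73 and 1.09 on the log2 scale. The adjusted p was 0.1311 in WT and 0.3987 in Maf-KO without the block and 1.034e-05 and 0.0004329 with it (edgeR), at log2 fold changes of 1.82 (SE 0.12) and 0.91 (SE 0.11) within codes. Hspa8 also passed in WT when only the 2 groups compared were fitted (adjusted p = 0.02247, edgeR). Hspa9, the mitochondrial HSP70, stayed between 247 and 337 CPM in all 10 libraries and was not called. Hspa12a, a distant relative of the family, was called lower in gut in both genotypes, at 0.59 to 0.88 CPM in gut against 2.53 to 3.80 CPM in spleen.

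Among the ER chaperones, Hspa5, Dnajb9 and Hspa13 were higher in gut in both genotypes. Of 8 ER chaperones (Hspa5, Hspa13, Hsp90b1, Dnajb9, Dnajb11, Dnajc1, Dnajc3 and Dnajc10), 4 rose in WT gut and 4 in Maf-KO gut, and none fell. Of all genes, 14.7% rose in WT gut and 14.4% in Maf-KO gut. Hspa5 (BiP), which binds proteins as they enter the ER, was at 3005 and 3030 CPM in WT gut, 3725 and 3305 CPM in Maf-KO gut, 1027, 877 and 1007 CPM in WT spleen and 1196, 1024 and 860.0 CPM in Maf-KO spleen. The lowest gut value, 3005 CPM, lay well above the highest spleen value, 1196 CPM. Its log2 fold change was 1.64 (SE 0.15, adjusted p = 4.724e-05, edgeR) in WT and 1.78 (SE 0.15, adjusted p = 3.042e-05, edgeR) in Maf-KO.

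Dnajb9 (ERdj4), which helps to take misfolded proteins out of the ER, was at 170.0 and 174 CPM in WT gut and 158 and 176 CPM in Maf-KO gut, against 59.3, 29.0 and 32.4 CPM in WT spleen and 24.9, 29.97 and 33.7 CPM in Maf-KO spleen. The log2 fold change was 2.10 (SE 0.26, adjusted p = 0.0003085, edgeR) in WT and 2.50 (SE 0.26, adjusted p = 0.000121, edgeR) in Maf-KO. Hspa13, an HSP70-like protein of microsomes, rose by a similar amount in both genotypes, from 31.3 to 40.1 CPM in spleen to 72.0 to 84.9 CPM in gut, with log2 fold changes of 1.16 (SE 0.15) and 1.17 (SE 0.15). Dnajb11 (ERdj3), a secreted partner of BiP, was called in Maf-KO only, at 183 and 152 CPM in gut against 127, 117 and 117 CPM in spleen, and Dnajc1 (ERdj1) in WT only, at 81.5 and 95.4 CPM against 60.6, 56.5 and 57.0 CPM. With the block Dnajc1 passed in Maf-KO as well (log2 fold change 0.57, SE 0.11, adjusted p = 0.003768, edgeR). The Dnajb11 call was lost without Maf-KO gut replicate 2 (adjusted p = 0.08894) and the Dnajc1 call without WT gut replicate 3 (adjusted p = 0.08432), and both were lost when scaled by library totals alone. Hsp90b1 (GRP94), which folds integrins and Toll-like receptors, was at 901 and 1224 CPM in WT gut, 1268 and 718 CPM in Maf-KO gut, 506, 451 and 758 CPM in WT spleen and 545, 707 and 430 CPM in Maf-KO spleen. It missed the threshold in both genotypes (adjusted p = 0.05019 and 0.06639, edgeR), passed it in DESeq2, and passed it with the block, at log2 fold changes of 0.76 (SE 0.10, adjusted p = 0.0006645) and 0.79 (SE 0.10, adjusted p = 0.0005009).

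Dnajc3 and Dnajc10, which restrain the kinase PERK and reduce disulfide bonds in the ER, did not follow. Dnajc3 lay between 222 and 284 CPM in gut and between 262 and 313 CPM in spleen. Dnajc10 was at 120 and 81.6 CPM in WT gut, 77.6 and 107 CPM in Maf-KO gut, 134, 141 and 116 CPM in WT spleen and 147, 110 and 165 CPM in Maf-KO spleen. It missed the threshold without the block (adjusted p = 0.235 and 0.06395, edgeR) and was lower in gut with it (adjusted p = 0.04102 and 0.003674).

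An ER stress element, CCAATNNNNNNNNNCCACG on either strand, was found in the RefSeq promoters of 37 of the 27025 genes (0.137%). Of the 60 members with an entry, 3 had it (5.0%), Hspa5, Hsp90b1 and Dnajc3. The 250 bases before the Hspa5 start are shown because it is the member with both the element and a call in both genotypes (chr2:34771840-34772089, plus strand, GRCm38.p6), with the element, which starts 65 bases before the start site, in capitals.
Hspa5: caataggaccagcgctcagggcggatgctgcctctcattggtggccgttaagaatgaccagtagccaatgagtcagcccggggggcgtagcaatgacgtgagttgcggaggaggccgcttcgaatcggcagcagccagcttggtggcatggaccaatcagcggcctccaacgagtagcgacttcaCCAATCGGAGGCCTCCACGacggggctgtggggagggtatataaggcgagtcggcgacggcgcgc

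Genes of the unfolded protein response outside the set moved with the ER chaperones. Of 18 on the list, 11 were higher in WT gut and 11 in Maf-KO gut, beside 14.7% and 14.4% of all genes. None on the list was lower, and the median log2 fold change was 0.74 and 0.77. By adjusted p the leading ones in WT were Herpud1, Atf6 and Atf4. Plasma cells, which depend on this response, were checked by 5 markers (Jchain, Sdc1, Mzb1, Xbp1 and Tnfrsf17), of which Xbp1 is also on the list of the unfolded protein response. All 5 were higher in WT gut and 4 in Maf-KO gut, with a summed level of 1414 to 6809 CPM in gut and 207 to 323 CPM in spleen, and Tnfrsf17 was at 0 in 2 Maf-KO spleen libraries. Their part in the rise of the ER chaperones over the spleen was not tested. In WT gut replicates 1 and 3 the marker sum was 6809 and 2332 CPM, with Hspa5 at 3005 and 3030 CPM. Hsp90b1 was at 901 and 1224 CPM in these libraries and Dnajb11 at 155.5 and 155.9 CPM. In Maf-KO gut replicates 2 and 3 the marker sum was 3756 and 1414 CPM, with Hspa5 at 3725 and 3305 CPM. Hsp90b1 was at 1268 and 718 CPM there and Dnajb11 at 183 and 152 CPM. Fewer cells of a type and less RNA per cell cannot be told apart in bulk libraries.

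All 3 HSP90 genes had higher means in gut in both genotypes, and 1 of them passed in WT and 0 in Maf-KO. Of all genes, 14.7% were called higher in WT gut and 14.4% in Maf-KO gut. Hsp90aa1, the inducible cytosolic form, was at 351 and 799 CPM in WT gut, 479 and 210.0 CPM in Maf-KO gut, 113, 100.3 and 184 CPM in WT spleen and 119, 259 and 93.9 CPM in Maf-KO spleen. It was called in WT (log2 fold change 2.12, SE 0.51, adjusted p = 0.0117, edgeR) and not in Maf-KO (adjusted p = 0.1237), where the block gave 1.02 (SE 0.13, adjusted p = 0.0004983). Without WT gut replicate 3 the WT call was lost (adjusted p = 0.1094).

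Hsp90ab1, the most abundant HSP90 message, followed the title code more than the tissue. It was at 1971 and 5051 CPM in WT gut and 4386 and 1633 CPM in Maf-KO gut, against 1003, 951 and 2176 CPM in WT spleen and 1085, 2578 and 823 CPM in Maf-KO spleen. The 2 gut libraries of S433 and S453 were the highest in gut, the 2 spleen libraries of the same codes were the highest in spleen, and the latter lay above the other gut libraries. It was not called (adjusted p = 0.1247 in WT and 0.2474 in Maf-KO, edgeR), and it passed in both genotypes with the block (log2 fold change 1.09, SE 0.12, adjusted p = 0.0002194, and 0.88, SE 0.12, adjusted p = 0.0006693). Without the 4 libraries of codes S433 and S453 Hsp90ab1 passed in WT (adjusted p = 0.02832, edgeR).

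Among the HSP110 exchange factors, Hspa4 was called higher in gut and Hsph1 was not, although Hsph1 differed more. Hspa4 was at 349 and 351 CPM in WT gut, 375 and 358 CPM in Maf-KO gut, 235, 248 and 242 CPM in WT spleen and 260, 290 and 259 CPM in Maf-KO spleen, a log2 fold change of 0.54 (SE 0.10, adjusted p = 0.002696, edgeR) in WT and 0.44 (SE 0.10, adjusted p = 0.007045, edgeR) in Maf-KO. Without Maf-KO gut replicate 2 the latter call was lost (adjusted p = 0.0556), as it was with library totals alone. Hsph1, an HSF1 target, was at 432 and 1304 CPM in WT gut, 1075 and 178 CPM in Maf-KO gut, 97.6, 84.1 and 336 CPM in WT spleen and 174, 611 and 76.4 CPM in Maf-KO spleen. Its log2 fold changes of 2.33 (SE 0.97) and 1.13 (SE 0.96) did not pass (adjusted p = 0.1008 and 0.4212, edgeR), and with the block they were 2.05 (SE 0.13, adjusted p = 8.357e-06) and 1.01 (SE 0.12, adjusted p = 0.0003627). Here too codes S433 and S453 gave the highest library of each genotype in both tissues.

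Of 23 cofactors of HSP70 and HSP90 outside the set, 1 was higher (Unc45a) and 1 lower (Bag5) in WT gut. In Maf-KO gut 4 were higher (Unc45a, Bag1, Cdc37 and Trap1) and 1 lower (Ppid). Over all genes, 14.7% were higher and 13.3% lower in WT gut, and 14.4% and 14.1% in Maf-KO gut. Stip1, which hands clients from HSP70 to HSP90, was at 199.9 and 502 CPM in WT gut, 563 and 193 CPM in Maf-KO gut, and 136 to 532 CPM in spleen. Of the 8 genes of the TRiC chaperonin, the folding ring for actin and tubulin, edgeR called 0 in either genotype (0 in WT and 2 in Maf-KO had an unadjusted p under 0.05), and their summed level was 2012 to 3133 CPM in gut and 2157 to 2890 CPM in spleen.

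The mitochondrial chaperones had calls in both directions in WT and only a lower one in Maf-KO. Of 7 (Hspa9, Hspd1, Hspe1, Dnaja3, Dnajc11, Dnajc15 and Dnajc19), 1 was higher and 3 were lower in WT gut, and 1 was lower in Maf-KO gut. The shares over all genes were 14.7% higher and 13.3% lower in WT gut, and 14.4% and 14.1% in Maf-KO gut. Hspd1 and Hspe1 encode the HSP60 ring and its HSP10 lid and share a bidirectional promoter. Hspd1 was at 183 and 469 CPM in WT gut, 352 and 129 CPM in Maf-KO gut, 86.9, 105 and 162 CPM in WT spleen and 115, 207 and 94.1 CPM in Maf-KO spleen. Hspe1 was at 81.6 and 215 CPM in WT gut, 138 and 44.7 CPM in Maf-KO gut, 42.0, 36.4 and 64.9 CPM in WT spleen and 38.8, 79.9 and 32.6 CPM in Maf-KO spleen. The 2 genes had the same highest and lowest library in gut, WT replicate 3 and Maf-KO replicate 3.

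Hspe1 passed in WT by a narrow margin (log2 fold change 1.64, SE 0.55, adjusted p = 0.04847, edgeR), and Hspd1 did not (1.47, SE 0.51, adjusted p = 0.05465). Neither was called in Maf-KO (adjusted p = 0.2759 and 0.2767), and with the block both passed in both genotypes, with adjusted p between 0.0001354 and 0.01895. The Hspe1 call was also lost without WT gut replicate 3 (adjusted p = 0.4085), without any 1 WT spleen library or without Maf-KO spleen replicate 1 (adjusted p = 0.05085 to 0.1335). DESeq2, limma-voom, library totals alone and limma on log2 FPKM did not call it either (adjusted p = 0.05644, 0.06472, 0.0666 and 0.09241). Dnaja3 (Tid1), a mitochondrial DnaJ protein, was lower in gut, at 44.9 and 62.4 CPM in WT and 66.0 and 45.4 CPM in Maf-KO against 74.7, 85.4 and 94.0 CPM and 80.3, 97.0 and 78.2 CPM in the spleen. Its log2 fold change was -0.66 (SE 0.20, adjusted p = 0.03272, edgeR) in WT and -0.61 (SE 0.20, adjusted p = 0.04164, edgeR) in Maf-KO. Leaving out any 1 of 3 WT libraries (gut replicate 1, spleen replicates 2 and 3) ended the WT call, with adjusted p up to 0.2329. Leaving out Maf-KO gut replicate 3, WT spleen replicate 2 or any Maf-KO spleen library ended the Maf-KO call, with adjusted p up to 0.3022. Dnajc11, an outer membrane protein tied to cristae, was lower in WT gut (39.7 and 41.5 CPM against 53.0, 58.9 and 53.3 CPM in spleen, adjusted p = 0.01478, edgeR), and not without WT gut replicate 1 (adjusted p = 0.0845).

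Most small heat shock proteins were close to silent in these cells: 5 of the 8 had too few counts to test, and Hspb11, an intraflagellar transport protein, at 6.17 to 11.1 CPM, and Hspb6, at 0.87 to 2.96 CPM, were not called. Hspb1, which holds unfolded proteins and guards actin, was at 4.15 and 22.1 CPM in WT gut and 3.22 and 1.04 CPM in Maf-KO gut. In spleen it was at 0.36, 0.23 and 1.61 CPM in WT and 0.33, 0.88 and 0.39 CPM in Maf-KO, which are 3 to 17 counts a library. WT gut replicate 3 was far above all others. Hspb1 was called in WT (log2 fold change 4.18, SE 0.88, adjusted p = 0.006027, edgeR), not without that library (adjusted p = 0.08595), and in Maf-KO only with the block (adjusted p = 0.01575, against 0.157 without).

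Of the DNAJA and DNAJB proteins that serve HSP70 in the cytosol, several rose with Hspa1a. Dnajb1 (HSP40), the main inducible partner of HSP70, was at 1074 and 2982 CPM in WT gut, 1338 and 426 CPM in Maf-KO gut, 114, 136 and 215 CPM in WT spleen and 139, 292 and 118 CPM in Maf-KO spleen. All gut libraries were above all spleen libraries. The log2 fold change was 3.71 (SE 0.59, adjusted p = 0.001421, edgeR) in WT and 2.27 (SE 0.57, adjusted p = 0.01477, edgeR) in Maf-KO, and without Maf-KO gut replicate 2 the latter call was lost (adjusted p = 0.1851).

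Dnajb4, a close relative of Dnajb1, was at 170.2 and 247 CPM in WT gut, 154 and 114 CPM in Maf-KO gut, 16.5, 17.9 and 24.02 CPM in WT spleen and 13.45, 28.4 and 17.9 CPM in Maf-KO spleen. It had the smallest adjusted p of all members in WT (log2 fold change 3.42, SE 0.30, adjusted p = 3.277e-05, edgeR) and rose by 2.75 (SE 0.29, adjusted p = 0.0001323, edgeR) in Maf-KO. Dnajb6, which keeps polyglutamine proteins from clumping, rose by less, from 26.2 to 35.4 CPM in spleen to 51.1 to 61.2 CPM in gut, a log2 fold change of 0.94 (SE 0.14) in WT and 0.78 (SE 0.13) in Maf-KO. Dnajb2 and Dnajb14 were called in WT only, and with the block Dnajb2 passed in Maf-KO too (log2 fold change 1.22, SE 0.20, adjusted p = 0.001739, edgeR).

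Dnaja1 and Dnaja4, cytosolic DnaJ proteins of the other main class, were called in WT only. Dnaja1 was at 391 and 586 CPM in WT gut, 427 and 231 CPM in Maf-KO gut, 92.9, 97.8 and 189 CPM in WT spleen and 143, 256 and 89.99 CPM in Maf-KO spleen. The log2 fold change was 1.95 (SE 0.45, adjusted p = 0.009475, edgeR) in WT and 1.02 (SE 0.45, adjusted p = 0.1193) in Maf-KO, where the block gave an adjusted p of 0.001223. Dnaja4 was at 244 and 486 CPM in WT gut, 316 and 98.1 CPM in Maf-KO gut, 46.5, 51.6 and 102 CPM in WT spleen and 72.4, 115 and 41.3 CPM in Maf-KO spleen (WT log2 fold change 2.46, SE 0.56, adjusted p = 0.008872, edgeR). In Maf-KO Dnaja4 passed with the block (adjusted p = 2.467e-05). Wdr61 overlaps 44.6% of the Dnaja4 exon bases on the other strand. Without WT gut replicate 3 both WT calls were lost (adjusted p = 0.06175 and 0.06805). Dnaja2, a constitutive member, lay between 274 and 340 CPM in all libraries.

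The DNAJC genes, a mixed family tied to endosomes, splicing, chromatin and ribosomes, had calls in both directions. Over all genes, 14.7% rose and 13.3% fell in WT gut, and 14.4% and 14.1% in Maf-KO gut. Of 25 DNAJC genes tested, 3 rose (Dnajc1, Dnajc12 and Dnajc21) and 3 fell (Dnajc11, Dnajc13 and Dnajc15) in WT. In Maf-KO 1 rose (Dnajc12) and 4 fell (Dnajc9, Dnajc13, Dnajc14 and Dnajc28). Their summed level hardly differed between libraries, 1559 to 1633 CPM in gut and 1690 to 1806 CPM in spleen. Dnajc13 (RME-8), which sorts cargo on endosomes, was at 97.2 and 107 CPM in WT gut and 97.1 and 102 CPM in Maf-KO gut, against 125, 152 and 151 CPM in WT spleen and 170, 155 and 147 CPM in Maf-KO spleen. It fell by 0.48 (SE 0.12, adjusted p = 0.01347, edgeR) in WT and by 0.66 (SE 0.12, adjusted p = 0.002851, edgeR) in Maf-KO on the log2 scale, and the WT call was lost without WT gut replicate 1 (adjusted p = 0.1002). Dnajc12 rose from 3.22 to 8.36 CPM in spleen to 11.0 to 13.8 CPM in gut (log2 fold change 1.44, SE 0.37, adjusted p = 0.01554 in WT and 1.13, SE 0.36, adjusted p = 0.04247 in Maf-KO, edgeR). Without WT gut replicate 1 or WT spleen replicate 2 its WT call was lost (adjusted p = 0.0859 and 0.05284), and 7 of the 10 single libraries each ended the Maf-KO call, with adjusted p up to 0.1858. Dnajc9, which escorts histones, was at 111 to 130.2 CPM in gut and 142 to 155 CPM in spleen (adjusted p = 0.03643 in Maf-KO, and 0.04376 in WT with the block). Dnajc28 was at 0.61 to 1.78 CPM in gut and 1.41 to 3.31 CPM in spleen (log2 fold change -1.94, SE 0.53, adjusted p = 0.02092 in Maf-KO, edgeR). Both Maf-KO calls were lost without either Maf-KO gut library, with adjusted p from 0.09504 to 0.1555, and without Maf-KO spleen replicate 2 or 3, with adjusted p from 0.05368 to 0.07065. That of Dnajc9 was also lost without Maf-KO spleen replicate 1 or WT spleen replicate 3 (adjusted p = 0.09313 and 0.05037).

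Among the regulators, Bag3 rose and the heat shock factors did not pass. Bag3, an HSF1 target that links HSP70 to selective autophagy, was at 96.2 and 238 CPM in WT gut, 126 and 78.4 CPM in Maf-KO gut, 17.4, 16.8 and 23.1 CPM in WT spleen and 23.3, 24.9 and 18.2 CPM in Maf-KO spleen. The lowest gut library, 78.4 CPM, stood clear of the highest spleen library, 24.9 CPM. Its log2 fold change was 3.13 (SE 0.35, adjusted p = 0.000168, edgeR) in WT and 2.21 (SE 0.35, adjusted p = 0.001252, edgeR) in Maf-KO. Hsf1, the factor itself, was at 72.2 and 84.0 CPM in WT gut, 89.2 and 66.5 CPM in Maf-KO gut and 61.2 to 71.7 CPM in spleen (adjusted p = 0.3193 and 0.2012, edgeR). Hsf2 lay between 3.70 and 7.79 CPM in all libraries (adjusted p = 0.09814 and 0.9141). Of 5 tested genes outside the set that are linked to HSF1, Ubb, a polyubiquitin gene, was higher in gut in both genotypes. It was at 406 to 643 CPM against 174 to 248 CPM, and the other 4 were not called. Over all genes, 14.7% were called higher in WT gut and 14.4% in Maf-KO gut. The median log2 fold change of the 5 genes was -0.18 in WT and -0.07 in Maf-KO.

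The spread between libraries of a group was itself structured. The inducible list, 12 cytosolic chaperones linked to the heat shock response (Hspa1a, Hspa1b, Hsph1, Hsp90aa1, Dnaja1, Dnaja4, Dnajb1, Dnajb4, Bag3, Hspb1, Hspa4l and the constitutive Hspa8), summed to 8145 and 27710 CPM in WT gut, 11550 and 3518 CPM in Maf-KO gut, 694, 811 and 1538 CPM in WT spleen and 976, 2472 and 601 CPM in Maf-KO spleen. WT gut replicate 3 (S433) held the highest gut value for 11 of the 12 genes, and Maf-KO spleen replicate 2 (S453) the highest spleen value for 11. In both genotypes and both tissues the library of S433 or S453 had the highest sum of its group. The highest and lowest sums differed 7.88-fold among the gut libraries and 4.11-fold among the spleen libraries, against 1.24-fold in both tissues for the sum of the 8 ER chaperones. Single ER genes varied more, up to 1.77-fold in gut (Hsp90b1) and 2.38-fold in spleen (Dnajb9), while Bag3 of the inducible list varied 1.48-fold in spleen.

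**Figure D3:**
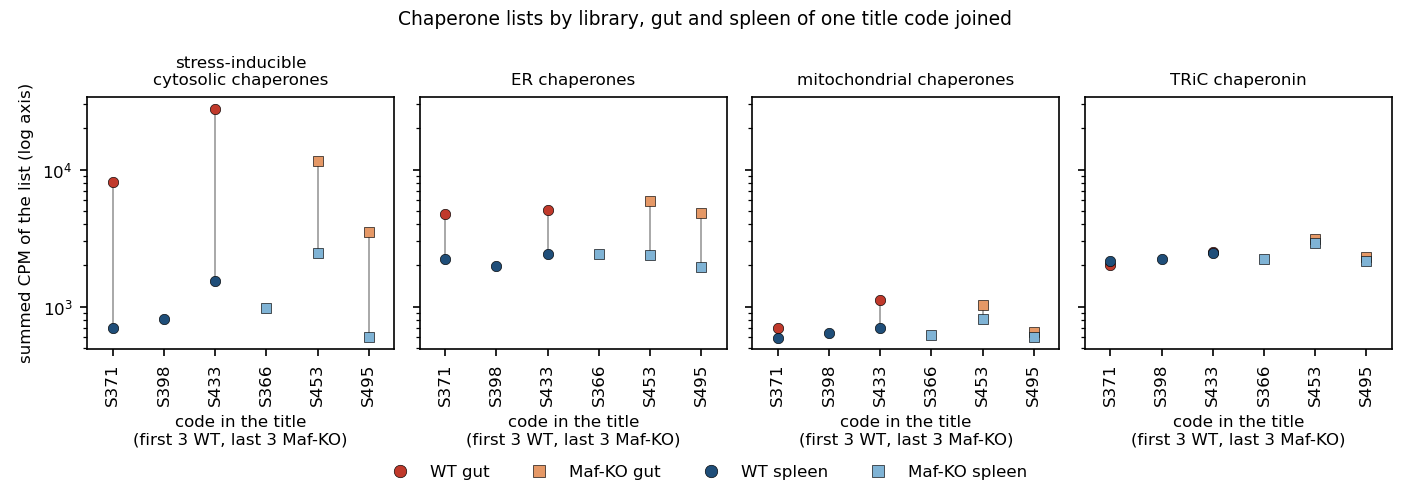
Summed CPM, on a log axis, of 4 chaperone lists in each library, placed by the code in the sample title (S371, S398 and S433 are WT, S366, S453 and S495 are Maf-KO), with gut and spleen libraries of 1 code joined by a line. The inducible list is high in codes S433 and S453 in both tissues, while the ER list is higher in gut in every code with both tissues and the TRiC list differs little, with its highest values in S453.

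Other genes moved with these libraries. Myeloid markers (6 genes) summed to 817 CPM in WT spleen replicate 3 and 452.8 CPM in Maf-KO spleen replicate 2, against 117 to 176 CPM in the other spleen libraries, and to 159 and 218 CPM in the gut libraries of codes S433 and S453 against 73.2 and 71.2 CPM in the other gut libraries. In 3 of the gut libraries, those of codes S371, S453 and S495, 2 of these markers were at 0. B cell markers (4 genes, none at 0) were highest in Maf-KO spleen replicate 2, with a sum of 343 CPM against 117 to 242 CPM in the other spleen libraries. The part of these cells in the chaperone levels was not tested. Without the 4 libraries of codes S433 and S453, an alternative added after the data were seen that leaves 1 gut library a genotype, 22 members were called in WT (1982 of the 13214 genes) and 12 in Maf-KO (1600 of the 13214 genes). Of these, 18 and 10 were among the earlier calls. Hspa1a and Hspa1b remained higher in gut without them, at log2 fold changes of 10.82 (SE 0.49) and 9.93 (SE 0.47) in WT and 10.28 (SE 0.52) and 9.30 (SE 0.48) in Maf-KO.

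Immediate-early genes, which cells switch on within minutes of a stimulus, were also higher in gut. Of 18 listed, 15 rose and 1 fell in WT, beside 14.7% and 13.3% of all genes. In Maf-KO 14 of them rose and 1 fell, beside 14.4% and 14.1% of all genes. Nr4a1 led the listed genes in both genotypes. Their summed level was 22920 and 27830 CPM in WT gut, 22480 and 21570 CPM in Maf-KO gut and 3156 to 5534 CPM in spleen, a 1.29-fold range among the 4 gut libraries. In gut the highest and the lowest sum were in WT replicate 3 and Maf-KO replicate 3, as for the inducible chaperones, and WT replicate 3 held the highest gut value for 14 of the 18 genes. In spleen the highest sum was in WT replicate 1 and the lowest in Maf-KO replicate 2, the library with the most inducible chaperone RNA. A link between the 2 lists was not tested.

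The effect of losing Maf was compared within each tissue. No member was called in gut or in spleen. In gut 3 of the 63 members had an unadjusted p under 0.05, a smaller share than the 8.14% of all genes, and none passed after adjustment (lowest adjusted p = 0.3131, edgeR; 0.151% of all genes were called). In spleen no member had an unadjusted p under 0.05 (lowest adjusted p = 0.9994, edgeR), and 0.0151% of all genes were called. DESeq2, limma-voom and limma on the authors' log2 FPKM also called 0 members in either tissue, with an unadjusted p under 0.05 in 4, 6 and 5 members in gut and in 0 in spleen. The median log2 fold change of the members was -0.06 in gut and 0.07 in spleen, beside -0.0035 and -0.0065 over all genes.

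The width of these comparisons differed by gene. Standard errors of the log2 fold change ran from 0.10 to 1.44 in gut (median 0.25) and from 0.08 to 1.465 in spleen (median 0.20). For Hspa5 the difference in gut was 0.22 (SE 0.17), for Hspa13 0.0076 (SE 0.16) and for Hsf1 -0.0048 (SE 0.15). For Hspa1a it was -1.41 (SE 1.13, adjusted p = 0.8061, edgeR) and for Hspa1b -1.64 (SE 1.44, adjusted p = 0.8277, edgeR), with WT and Maf-KO gut libraries overlapping in both genes. The Hspa1a difference turned to 0.07 without WT gut replicate 3. The Dnajb1 difference was -1.20 (SE 0.63, adjusted p = 0.6721).

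**Figure D4:**
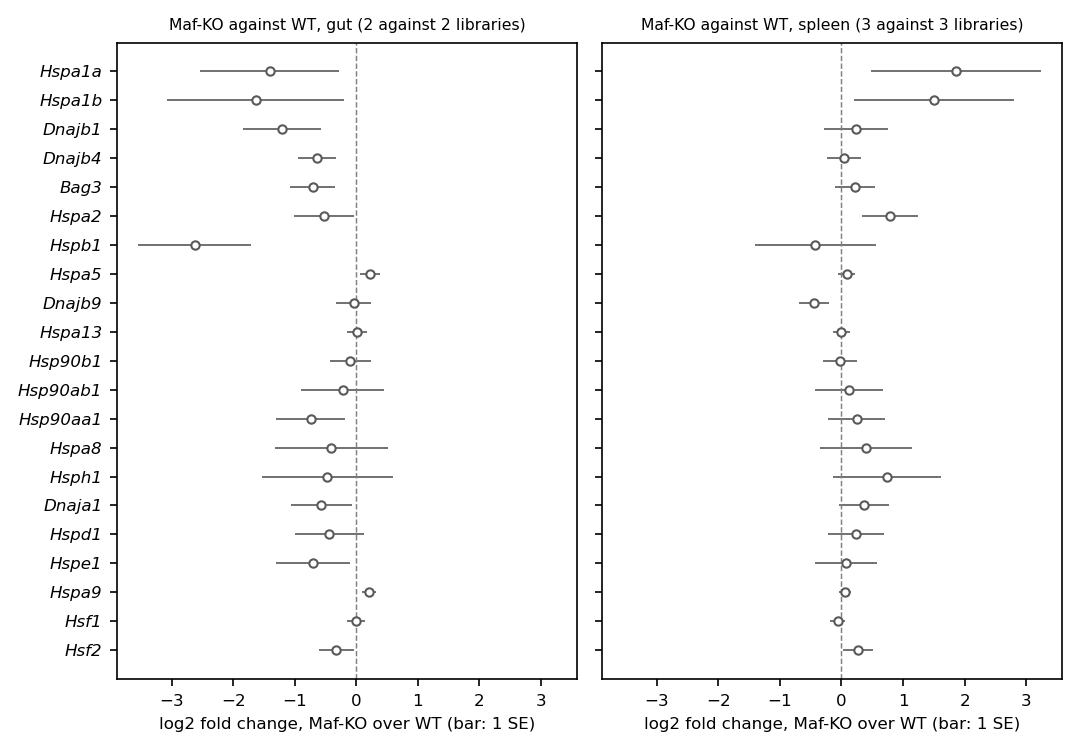
Log2 fold change of Maf-KO over WT with 1 SE for 21 members in gut (2 against 2 libraries) and spleen (3 against 3 libraries); no point passed the adjusted p of 0.05. The bars are wide for Hspa1a, Hspa1b, Hsph1 and Hspb1 and narrow for Hspa5, Hspa13, Hspa9 and Hsf1.

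The 3 members under an unadjusted p of 0.05 in gut were Dnajc15, Hspb1 and Dnajb13. Dnajc15 (MCJ), an inner membrane protein that slows respiratory complex I, was at 49.9 and 38.4 CPM in WT gut and 64.5 and 69.9 CPM in Maf-KO gut, with 57.1 to 66.3 CPM in WT spleen and 53.6 to 68.3 CPM in Maf-KO spleen. The gut groups did not overlap, and the difference was 0.61 (SE 0.16, unadjusted p = 0.004051, adjusted p = 0.3131, edgeR). It was also the 1 member with an unadjusted p under 0.05 in the interaction (0.62, SE 0.21, unadjusted p = 0.01439, adjusted p = 0.9999). Hspb1 differed by -2.63 (SE 0.92, adjusted p = 0.4909) and Dnajb13, a sperm flagellum protein whose exons overlap Ucp2 by 11.8%, by 0.63 (SE 0.25, adjusted p = 0.578). None of the 3 passed in any alternative analysis.

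The 12 members that could not be tested were Dnajb3, Dnajb7, Dnajb8, Dnajc5b, Dnajc5g, Dnajc22, Hspa12b, Hspb2, Hspb3, Hspb7, Hspb8 and Hspb9. Several of these are known from testis, muscle or heart. Dnajb8, Dnajc5g, Dnajc22 and Hspb3 had 0 counts in all 10 libraries, and the others reached at most 0.76 CPM in any library.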

How the data were processed

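Treg RNA was sequenced as 10 bulk libraries. The authors deposited raw counts per gene and, per the file headers, log2 FPKM per library. Subread, featureCounts and limma, with GRCm38 and mm10, are named in the submitters' processing notes, and no strand setting or annotation release is given. Rows without a gene symbol held 0.173% to 0.203% of the counts.

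Genes were kept by edgeR's filterByExpr (minimum count 10, total 15), scaled by TMM (factors 0.887 to 1.12) and fitted with edgeR 4.0.16's quasi-likelihood model in R 4.3.3, as 1 model of 4 groups over all 10 libraries. P-values were Benjamini-Hochberg adjusted over 13214 genes, with calls made below 0.05. The procedure without a block was run on simulated libraries drawn independently of each other. That run does not cover deviations shared by libraries of the same code. CPM values use TMM scaling, and FPKM was used to compare levels between genes. Alternatives were DESeq2 1.42.0 and its size factors, limma 3.58.1 (voom, and a trend fit on log2 FPKM), library totals without TMM, no filter, only the groups compared, blocks, and each library left out.

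Gut and spleen libraries with the same title code correlated in their deviations from the group means (r = 0.313, 0.255, 0.382 and 0.36 across genes; at most 0.219 between different codes), so the code was used as a block. The 2 gut libraries of a genotype deviate as mirror images, so these values are not independent. Replicates differed by more than sampling noise (chi-square per degree of freedom 13.9 to 32.6).

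The members and lists were chosen with earlier results of these data known. Members named with values were a fixed set of 18, up to 4 called per family and comparison by adjusted p, and up to 3 called genes of each other list. Those outside the rule (such as Hspa1l, Hspa12a, Hspb6, Hspb11, Dnaja2, Dnajb13, Dnajc3, Dnajc10 and Dnajc15, and Stip1 and single markers), the Hspa1a, Hspa1b and Hspa5 promoters and the pair of heat shock units were chosen after values were seen.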

Additional observations from a re-analysis of the deposited data

How the results depend on the processing

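In gut against spleen, edgeR called 27 members in WT and 20 in Maf-KO. The other tools, scalings and filters gave 25 to 30 in WT and 20 to 24 in Maf-KO. A block by title code gave 34 in Maf-KO, and leaving out the 4 libraries of codes S433 and S453, chosen after seeing the data, gave 12. Leaving out each library in turn gave 18 to 29 in WT, with 18 without WT gut replicate 3, and 12 to 20 in Maf-KO, with 12 without Maf-KO gut replicate 2; where 1 gut library remained it was assumed to vary like the other groups. Without Maf-KO gut replicate 2 the uncalled differences in Maf-KO turned negative for 4 members, and over the libraries left out they ran from -0.69 to 2.33 for Hsph1, -0.71 to 2.12 for Hspa8, -0.10 to 1.34 for Hspd1 and -0.17 to 1.46 for Hspe1. The Hspa1a difference between Maf-KO and WT gut ran from -2.54 to 0.0721, the latter without WT gut replicate 3. A limma-trend fit on log2 FPKM split the calls into 17 higher and 13 lower in WT and 10 higher and 12 lower in Maf-KO. The shares of all genes called are not given beside the counts of these fits, so the counts alone are no result about the members. The cause of these changes was not tested. Of 21 called members named in WT, 10 kept their call in every alternative run (Bag3, Dnajb1, Dnajb4, Dnajb6, Dnajb9, Hspa13, Hspa1a, Hspa1b, Hspa2 and Hspa5), and of 17 in Maf-KO, 8 did (the same without Dnajb1 and Hspa2). DESeq2 gave no adjusted p for Hspa1a and Hspa1b. The replicate numbers did not pair the genotypes (r = -0.0394, -0.183 and -0.347 in spleen), and a block by replicate number gave 26 members in WT, 18 in Maf-KO and 0 in the comparisons of genotypes. With the title code as a random effect the comparisons of genotypes also gave 0. The 2 gut libraries a genotype limit the differences that could be called for the inducible genes.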
